A study of Mus musculus with 4 samples.

Results

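The 9 genes described here, Ifi203, Ifi204, Ifi205, Ifi207, Ifi209, Ifi211, Ifi213, Mndal and Aim2, belong to the mouse PYHIN family, also called the Ifi200 family. They were taken by symbol from a single-cell count table of 4099 genes, in which each had a row. The cells came from 4T1 mammary tumours grown in BALB/c mice. One group of tumours was wild-type and the other was Mif-depleted, both from the 4T1 line, with 2 samples in each group and 3 dissociated tumours in a sample. Live cells carrying CD45 on their surface were sorted and run on a droplet platform in all 4 samples. 4T1 is a BALB/c breast cancer line, and Mif encodes a secreted cytokine. The barcodes of the table carry the suffix 1 or 2, and no name ties a suffix to a sample or a group. For that reason wild-type and Mif-depleted tumours were not compared, and levels are given by the deposited cell type name, first for suffix 1 and then for suffix 2.

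PYHIN proteins typically join a pyrin domain, which binds other proteins, to a HIN domain, which binds double-stranded DNA. Aim2 senses DNA in the cytosol and assembles an inflammasome that activates caspase-1, the protease that matures interleukin-1β. Ifi204 is the member most often set beside human IFI16, a DNA sensor that signals through STING. The family has expanded in the mouse to a cluster of neighbouring genes, and many of its members are induced by interferon.

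The genes lie side by side on chromosome 1, between positions 173350879 and 174031810 of GRCm38 in the GENCODE annotation, a stretch of 680.9 kb. Aim2 and Ifi209 lie on the plus strand and the other 7 members on the minus strand. Copies in the cluster resemble each other. Of the 50-base stretches in the annotated transcripts of Ifi211, 72.8% also occurred in another gene, and 44.7% occurred in Ifi205. The share was 33.7% for Ifi209, chiefly with its neighbour Ifi214. It lay between 12.2% and 20.0% for Ifi203, Ifi204, Ifi205, Ifi213 and Mndal, was 7.29% for Ifi207, and was 0.628% for Aim2. The annotated Mndal gene runs from 173849126 to 173942491 and spans Ifi211 and most of Ifi203. Of its exonic bases, 4.27% were also exonic in Ifi203 or a further gene model on that strand. How reads shared between copies were assigned is not given in the sources used here, so the division of UMIs among Ifi211, Ifi205, Ifi209 and Ifi204 is uncertain, and the value of Aim2 is the least exposed to it.

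RefSeq start sites were matched by symbol for 8 of the 9 members. The 150 bases before the start site are printed to show how alike the members are there and where they differ. Capitals mark GAAANNGAAA, the core of the interferon-stimulated response element that IRF proteins bind. In Ifi209 they mark the nearest 10 bases to GAAATCGAAA, and in Aim2 nothing is marked. The sequences are those of the GRCm38.p6 reference, 5′ to 3′ on the gene's own strand, and the reference strain is C57BL/6J, not BALB/c.
Ifi203 (chr1:173942493-173942642, minus strand): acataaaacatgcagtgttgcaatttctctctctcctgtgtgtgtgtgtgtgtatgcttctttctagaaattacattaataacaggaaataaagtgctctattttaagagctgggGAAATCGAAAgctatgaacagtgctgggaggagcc
Mndal (chr1:173880188-173880337, minus strand): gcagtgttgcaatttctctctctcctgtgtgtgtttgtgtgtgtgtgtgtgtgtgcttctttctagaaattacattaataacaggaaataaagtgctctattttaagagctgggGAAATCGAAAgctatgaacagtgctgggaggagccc
Ifi207 (chr1:173741810-173741959, minus strand): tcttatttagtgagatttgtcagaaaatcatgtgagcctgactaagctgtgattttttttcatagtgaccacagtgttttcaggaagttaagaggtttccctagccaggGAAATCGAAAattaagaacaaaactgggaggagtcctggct
Ifi211 (chr1:173913047-173913196, minus strand): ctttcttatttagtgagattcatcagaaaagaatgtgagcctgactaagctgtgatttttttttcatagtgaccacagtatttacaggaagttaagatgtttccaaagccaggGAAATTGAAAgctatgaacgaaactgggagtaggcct
Ifi213 (chr1:173599273-173599422, minus strand): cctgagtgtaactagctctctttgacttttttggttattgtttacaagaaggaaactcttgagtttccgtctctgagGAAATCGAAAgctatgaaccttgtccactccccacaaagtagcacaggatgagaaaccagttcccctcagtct
Ifi205 (chr1:174031756-174031905, minus strand): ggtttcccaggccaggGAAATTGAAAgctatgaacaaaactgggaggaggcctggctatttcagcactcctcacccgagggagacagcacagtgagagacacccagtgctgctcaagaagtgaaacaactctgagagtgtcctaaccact
Ifi209 (chr1:173630709-173630858, plus strand): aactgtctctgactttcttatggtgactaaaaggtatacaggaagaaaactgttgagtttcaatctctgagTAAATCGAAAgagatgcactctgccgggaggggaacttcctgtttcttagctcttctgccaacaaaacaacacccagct
Aim2 (chr1:173420454-173420603, plus strand): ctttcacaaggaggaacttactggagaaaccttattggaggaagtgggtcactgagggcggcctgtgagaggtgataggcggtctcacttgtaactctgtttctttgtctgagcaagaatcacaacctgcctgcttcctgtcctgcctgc

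RefSeq lists 10 start sites for these 8 members, since Ifi203 and Mndal have 2 each, and the window printed for those genes is the one with GAAATCGAAA. A match to GAAANNGAAA on either strand stood in 7 of the 10 windows of 250 bases before to 50 after the start, and these belonged to 6 members. Of all 32851 RefSeq promoters of that length, 3.44% held one. The other start of Ifi203, at 173942672, held no match, and its nearest stretches differed from GAAATCGAAA at 4 bases. The exact run GAAATCGAAA occurred in 16 of these promoters, or 0.0487%, and 4 of them belonged to Ifi203, Ifi207, Ifi213 and Mndal. The same run stood before the starts of Ifi206, Ifi208 and Ifi214, further PYHIN genes of the cluster. Promoters of the cluster are in part near copies, so these matches are not independent. The run began 35 bases before the start in Ifi203, 36 in Mndal, 41 in Ifi207 and 73 in Ifi213. Ifi211 and Ifi205 each held a copy that differed by C6T, counted from the 5′ end of GAAATCGAAA. Ifi209 held a copy that differed by G1T, which removes the match, and the nearest stretch in Aim2 differed at 3 bases (A3C, T5A, C6A). No member window held TTCNNNGAA, the core of the gamma-activated site, against 8.30% of all promoters. With 10 windows, some of them near copies, an absence cannot be told apart from that share. In a global alignment of the printed windows, Ifi203 and Mndal were identical at 85.7% of aligned positions with an unbroken run of 96 shared bases. Ifi207 and Ifi211 were identical at 84.4%. The median of the 28 pairs was 49.5%. A match is a description of these letters and was not tested for binding.

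The table held 13162 cells with suffix 1, all of those annotated, and 3221 cells with suffix 2, which is 26.9% of those annotated. A barcode sequence was shared between the suffixes in 12 cases. Levels are UMIs per 10000 counted UMIs over all cells of a name, with exact Poisson 95% intervals that cover counting error only. The denominator is the UMIs of the 4099 genes, which end partway along chromosome 5. A name was called above or below when the 95% interval of its ratio to all other cells of the same suffix lay beyond 2-fold and both sides together held at least 50 UMIs. The cells of a name come from the same few libraries and are not independent, and no test across them was made. Names matched their markers in part: the 4 neutrophil markers made up 6013 of every 10000 UMIs in neutrophils, and 3 C1q genes of macrophages were also found in cells named CD8_Tex. Ptprc, the gene of CD45, was at 2.34 per 10000 in epithelial cells and 3.55 in fibroblasts, against 14.9 to 71.0 in the named macrophages, monocytes, T cells, B cells and NK cells of suffix 1.

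The 9 genes together gave 38348 UMIs in suffix 1 and 12639 in suffix 2. Their summed level was highest in Macro_Ccl12, the macrophages with Irf7 in their deposited label, at 79.4 per 10000 and 68.4 in suffix 2. Mono_Ly6c2 followed at 36.6 and 39.6, Mono_Itgal at 36.2 and 30.6 (5 cells in suffix 2), CD4_Tcm at 33.0 and 34.8, and cDC2_Cd209a at 32.1 and 31.8. The median over the 22 names was 18.8 in suffix 1, close to the level of CD8_Tex at 20.0 and Macro_Maf at 20.7. Neutrophils were lowest at 1.12 and 2.25. Of 21 pairs of names that follow each other in the order of suffix 1, 16 did not differ beyond counting error. The top of the order did: Macro_Ccl12 exceeded Mono_Ly6c2 by 1.12 on the log2 scale (1.02 to 1.21), though in suffix 2 by 0.79 (0.60 to 0.97).

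**Figure D1:**
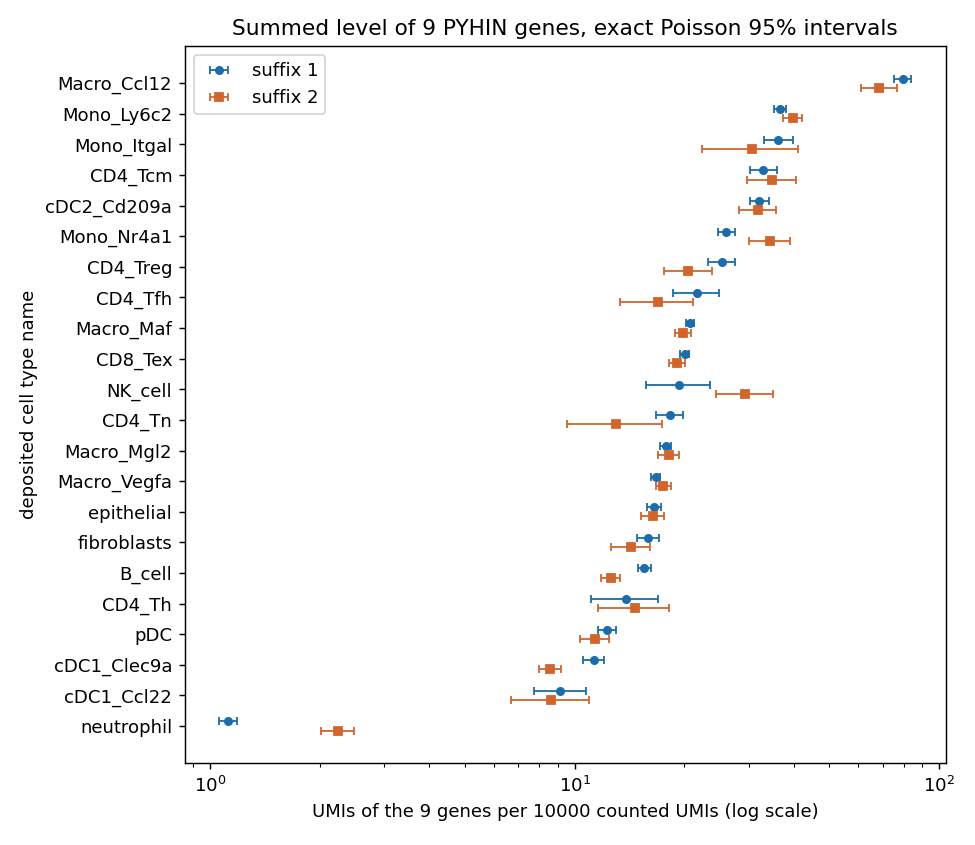
Summed level of the 9 genes for each deposited cell type name, as UMIs per 10000 counted UMIs on a log axis. Points are suffix 1 and squares suffix 2, and bars are exact Poisson 95% intervals. Macro_Ccl12 lies at 79.4 and 68.4, apart from every other name, and neutrophils lie at 1.12 and 2.25.

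Nearly the whole cluster was high in Macro_Ccl12. Of the 8 members with enough UMIs to be called, 7 lay above 2-fold in suffix 1, where 2.90% of 3514 genes did, and 7 in suffix 2, where 1.78% of 3087 genes did. The median log2 ratio of these 8 members was 2.84 in suffix 1, against 0.12 over all genes. Ifi204 stood at 17.7 per 10000 (15.8 to 19.8) in Macro_Ccl12 and at 14.7 in suffix 2, against 1.74 in all other cells of suffix 1. Mndal stood at 17.4 and 17.1, Ifi203 at 13.8 and 11.3, Ifi207 at 12.7 and 9.53, Ifi209 at 8.95 and 7.15, Ifi211 at 4.85 and 5.41, and Ifi205 at 1.88 and 1.95. Aim2 was the exception, at 1.88 (1.30 to 2.64) and 1.30. Ifi213 was counted 22 times in suffix 1 and 8 times in suffix 2, too few for a call in any name.

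Set against Macro_Maf, a larger macrophage name of the same suffix, the members of Macro_Ccl12 differed unequally. The log2 ratio was 4.36 for Ifi205 (3.58 to 5.15), 3.17 for Ifi209, 2.73 for Ifi211, 2.36 for Ifi204, 1.93 for Ifi203, 1.78 for Mndal and 1.22 for Ifi207 (1.01 to 1.42), and all of these lay above 2-fold, where 1.41% of 2481 genes did. Aim2 differed by 0.53 (−0.03 to 1.04) in suffix 1 and by −0.37 (−1.85 to 0.78) in suffix 2, and both intervals include no difference. In suffix 2 the interval for Ifi207, at 1.20, reached 0.71. Against the monocytes of Mono_Ly6c2, Ifi207 differed by 0.42 in suffix 1 and by 0.00 in suffix 2, and in suffix 2 the interval ran from −0.50 to 0.46, whereas Ifi204 was higher in Macro_Ccl12 by 1.29 (1.09 to 1.49) and by 1.01 (0.59 to 1.42).

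Interferon response genes were high in the same cells, and most genes of DNA sensing were not. Of 17 interferon response genes in the table, 13 lay above 2-fold in Macro_Ccl12, where 2.90% of all genes did: Ifi44, a classical interferon-stimulated gene, at 21.1 per 10000 against 1.33 in other cells, and Isg15, a ubiquitin-like modifier, at 43.8 against 4.00. The count was 7 of 17 in suffix 2. Of 11 genes of cytosolic DNA sensing and the inflammasome, 2 lay above in both suffixes: Zbp1, a sensor of Z-form nucleic acid, at 14.2 against 2.10, and Ifih1, a sensor of double-stranded RNA, at 4.22 against 1.00. Both stand in the interferon list too. Il1b, the cytokine gene downstream of the Aim2 inflammasome, was at 106 per 10000 against 77.8, within 2-fold. All 4 further PYHIN genes of the table lay above in suffix 1, with Ifi202b, which has HIN domains but no pyrin domain, at 12.5 against 1.70.

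The level in Macro_Ccl12 rested on few cells. The name held 131 cells in suffix 1 with a median of 423 counted UMIs, and 64 of them had 500 or more. Those 64 cells had a summed level of 84.6 per 10000, and the 67 shallower ones had 31.7. The 14 cells with the most UMIs of the 9 genes held 53.9% of the UMIs of the 9 genes. The name held 26 cells in suffix 2.

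**Figure D2:**
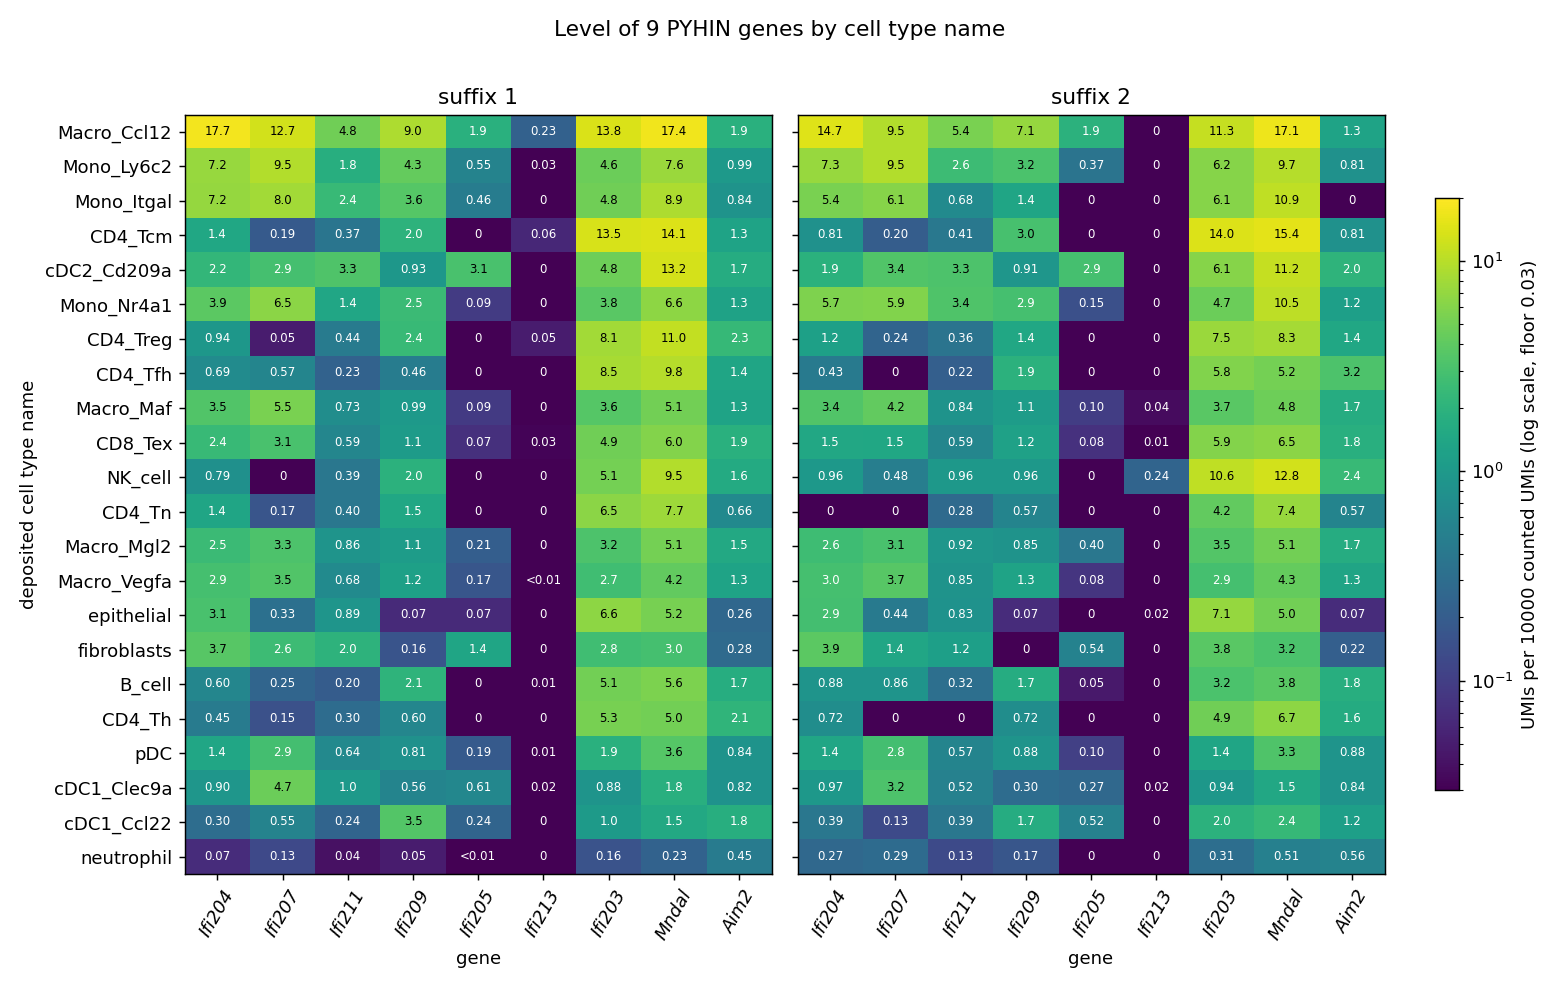
Level of each gene (columns) in each cell type name (rows, ordered by summed level in suffix 1), with suffix 1 on the left and suffix 2 on the right. Each cell prints UMIs per 10000 counted UMIs and is coloured on a log scale. Ifi204 and Ifi207 are bright in the macrophage and monocyte rows, Ifi203 and Mndal also in the T cell rows, and Aim2 varies least in suffix 1.

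Ifi204 and Ifi207 made up more of the family in macrophage and monocyte names than in lymphoid names. The comparison was chosen after the values were seen, and it takes 7 macrophage and monocyte names against 7 T, B and NK names. The eighth lymphoid name, CD8_Tex, is kept apart, since part of its cells held C1q transcripts of macrophages. Ifi207 made up 22.7% of the UMIs of the 9 genes in the myeloid names (16.0% to 26.4% in single names) and 1.23% in the lymphoid names (0 to 2.66%). In CD8_Tex the share was 15.5% (14.4% to 16.6%), just under the 16.0% (14.1% to 18.0%) of Macro_Ccl12, and the intervals overlapped. With CD8_Tex among them the lymphoid names had 8.19%. The suffix 2 values were 20.5% and 4.51%, where the lowest myeloid name was at 13.9%, the highest of the 7 lymphoid names at 6.87% and CD8_Tex at 7.61%. As a level, Ifi207 ran from 3.25 to 12.7 per 10000 in the myeloid names and from 0 to 0.575 in the 7 lymphoid names of suffix 1, and it was 3.10 in CD8_Tex. In CD4_Treg it was counted once in 202920 UMIs.

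Ifi204 followed the same split, with 17.3% of the UMIs of the 9 genes in myeloid names and 4.29% in lymphoid names, and 17.1% and 5.66% in suffix 2. The share was 11.9% in CD8_Tex, and 8.02% in the lymphoid names when CD8_Tex is counted among them. A high share was not particular to the myeloid names. Ifi204 made up 23.47% in fibroblasts and 18.77% in epithelial cells, and 27.55% and 17.56% in suffix 2. The level of Ifi204 in single names lay between 2.52 and 17.7 per 10000 in these myeloid names. It lay between 0.450 and 1.43 in the 7 lymphoid names, and at 2.39 in CD8_Tex. Dendritic names and neutrophils ran from 0.0685 in neutrophils to 2.22 in cDC2_Cd209a. Fibroblasts were at 3.73, and at 3.93 in suffix 2, within the range of the myeloid names. After each cell was thinned to 500 UMIs, an Ifi204 UMI was found in 35.9% of Macro_Ccl12 cells, 27.2% of Mono_Ly6c2 cells, 15.6% of Macro_Maf cells and 3.69% of B cells. The share was 0.312% in neutrophils, where the neutrophil markers fill much of the 500 UMIs and leave fewer for other genes. It is therefore not a background share for B cells. Ifi211 joined this group as a share of 4.41% in myeloid and 1.45% in lymphoid names. Ifi205 was not counted in 4543 lymphoid family UMIs of suffix 1, which allows a share of up to 0.0660% by the limit of 3 counts, and was counted 4 times in 1731 in suffix 2. CD8_Tex held 16 Ifi205 UMIs in suffix 1.

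**Figure D3:**
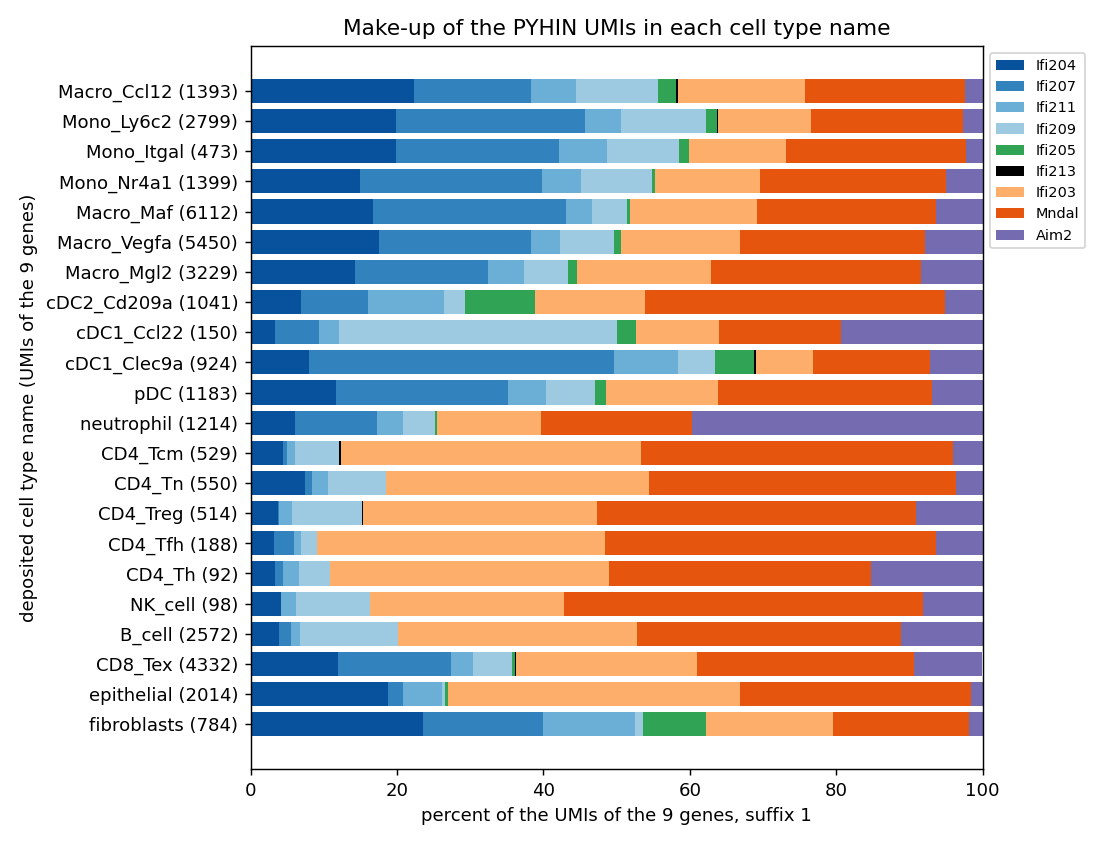
Make-up of the UMIs of the 9 genes in each cell type name of suffix 1, in percent. The number beside each name is the count of UMIs behind the bar. Blue segments (Ifi204, Ifi207, Ifi211, Ifi209) together fill more of the macrophage and monocyte bars than of the T cell and B cell bars. Ifi209 alone does not show this split. It runs from 2.13% to 13.4% in T, B and NK names and from 4.79% to 11.7% in macrophage and monocyte names. Orange segments (Ifi203, Mndal) fill most of the T cell and B cell bars, and Aim2 in purple is widest in neutrophils.

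Ifi203 and Mndal carried the family in lymphocytes. Ifi203 was 34.2% of the UMIs of the 9 genes in the 7 lymphoid names of suffix 1, and Mndal was a further 39.1%. The separate shares of Ifi203 and Mndal were 16.3% and 24.7% in the myeloid names. With CD8_Tex among the lymphoid names they were 29.5% and 34.5%. Such a make-up was not particular to lymphocytes. In epithelial cells the shares of Ifi203 and Mndal were 39.92% and 31.58%, and 43.54% and 30.2% in suffix 2. In CD4_Tcm, Ifi203 was at 13.5 per 10000 (11.8 to 15.4) and Mndal at 14.1 (12.3 to 16.1), while Ifi207 was at 0.187. The suffix 2 values were 14.0, 15.5 and 0.203. In this name 2 members lay above 2-fold and 1 below, where 10.8% and 6.69% of all genes did. The log2 ratio of Macro_Ccl12 to CD4_Tcm for Ifi203 was 0.03 (−0.24 to 0.30), and CD4_Tcm exceeded the next name, CD4_Tfh at 8.51, by 0.67 (0.28 to 1.07). CD4_Tn, the naive cells by label, had Ifi203 at 6.53 and Mndal at 7.66 per 10000, and the log2 ratio of CD4_Tcm to them was 1.05 (0.76 to 1.34) and 0.88 (0.61 to 1.15). CD4_Tcm cells are small libraries, with a mean of 622 counted UMIs, and as UMIs per cell their summed level was lower than that of other cells, with a log2 ratio of −0.52.

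The pair moved together across names. Over the 21 names with at least 50 cells in suffix 1, Pearson's r of log2(level + 0.1) between Ifi203 and Mndal was 0.95, and it was 0.96 over 14 names in suffix 2. Names share libraries and depth, and some members share transcript sequence, so r is a description. These are the genes whose printed windows were identical at 85.7%. Ifi207 and Ifi211, the pair at 84.4%, had r of 0.74 and 0.78. Ifi204 and Ifi211 had 0.87 and 0.80, and Ifi203 and Ifi207, which both hold GAAATCGAAA, had −0.03 and −0.21.

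The ratio of Mndal to Ifi203 UMIs was nevertheless not fixed. It had a median of 1.40 over 21 names with enough UMIs in suffix 1 and ran from 0.791 (0.712 to 0.879) in epithelial cells to 2.73 (2.27 to 3.30) in cDC2_Cd209a. In suffix 2 these names were at 0.694 and 1.83, and pDC was highest at 2.43.

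Dendritic cell names differed both in total and by member. The summed level was 32.1 per 10000 in cDC2_Cd209a and 9.14 in cDC1_Ccl22 of suffix 1. The log2 ratio was 1.81 (1.57 to 2.07), and 1.88 (1.49 to 2.29) in suffix 2. In cDC2_Cd209a, conventional dendritic cells with Cd209a in their label, 3 members lay above 2-fold in each suffix, where 4.07% and 1.91% of all genes did: Ifi205, Ifi211 and Mndal. Ifi205 reached its highest level there, 3.09 per 10000 (2.51 to 3.76) and 2.95, against 0.132 in all other cells of suffix 1. After thinning, 10.7% of these cells held an Ifi205 UMI. Ifi211 was at 3.33 and 3.29. Since part of the Ifi211 sequence is shared with Ifi205, the UMIs of these genes may be divided between them in ways that cannot be told apart here. Ifi204, at 2.22 and 1.93, did not lie beyond 2-fold.

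In cDC1_Ccl22, by contrast, Ifi209 was the member above 2-fold, at 3.47 per 10000 (2.63 to 4.50), where 7.83% of all genes were, and Ifi204 and Ifi207 were below, where 2.90% were. In suffix 2 Ifi209 stood at 1.70 (13 UMIs) and was not called. The log2 ratio of cDC2_Cd209a to cDC1_Ccl22 was 3.77 for Ifi211, 3.66 for Ifi205 and 3.11 for Mndal, and it was −1.91 (−2.60 to −1.25) for Ifi209. The interval for Ifi209 in suffix 2, at −0.91, included no difference. In cDC1_Clec9a, Ifi207 at 4.69 and 3.23 per 10000 was 41.6% of the UMIs of the 9 genes in suffix 1.

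Aim2 was the flattest member in suffix 1. Its level ran from 0.263 per 10000 in epithelial cells to 2.32 in CD4_Treg, with a median of 1.31, and no name lay above 2-fold in either suffix, while by name 1.45% to 16.9% of all genes did in suffix 1. None of the 21 neighbouring pairs in its order differed beyond counting error. Neighbours in a sorted order are close by construction, and few UMIs hide differences, so this count does not rank the members. In suffix 1 it was 20 of 21 pairs not differing for Ifi209, and 21 for Ifi213 with its 22 UMIs. The highest name for Aim2 was CD4_Tfh at 3.25 in suffix 2, so the top of its order differed. By range Aim2 was not the flattest member there. Its level went down to 0.069 in epithelial cells and to 0 in the 5 Mono_Itgal cells, while Mndal ran from 0.512 to 17.1. For Aim2, epithelial cells, at 0.263 and 0.069, and fibroblasts, at 0.284 and 0.215, lay below in both suffixes. Of all genes, 12.1% and 11.0% did so for epithelial cells and 5.92% and 5.96% for fibroblasts. The genes most like it over 21 names were Cd48, a surface ligand of leukocytes, with r of 0.92 (0.79 in suffix 2), Rgs2, a regulator of G protein signalling, with 0.88 (0.90), and Arhgap30, a GTPase-activating protein, with 0.87 (0.90).

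For the other members, the same search among genes with at least 200 UMIs in suffix 1 gave different companions. Ifi204 was most like Ifi44, with r of 0.82 (0.66), and Zbp1, with 0.82 (0.29), followed by Fn1, with 0.78 (0.87). Ifi211 was also most like Ifi44, with 0.82 (0.85), followed by Ssr3, with 0.81 (0.56), and Rrbp1, with 0.79 (0.69). Ifi207 was most like Stard9, a kinesin gene, with 0.94 (0.91), and close to Rab7b, an endosomal GTPase, with 0.92 (0.87). Ifi209 was most like its neighbour Ifi214, with 0.77 (0.69), with which it shares sequence, and was followed by Actr3, an actin nucleator, and Sp110, an interferon-induced nuclear body gene. Ifi203 was most like Mitd1, a gene of cell abscission, with 0.83 (0.73), and Mndal most like Tgs1, an RNA cap methyltransferase gene, with 0.84 (0.67).

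Neutrophils had the lowest summed level, and all 8 members that could be called lay below 2-fold in suffix 1, where 73.5% of all genes did, so the count is near the background of that name. In suffix 2 it was 7, with 66.7% of all genes. S100a8 and S100a9 fill much of the denominator there. Within this low total Aim2 was prominent, at 0.446 per 10000 of a summed 1.12, a share of 39.7% (36.9% to 42.5%) against 6.10% in the macrophage and monocyte names. In suffix 2 the share was lower, at 24.7% (20.4% to 29.5%) against 6.53%. Of 5712 neutrophils, 2723 held no C1q UMI. In those cells Aim2 was at 0.445 per 10000, and Ifi203 and Ifi207 were at 0.117 and 0.0955. In the 78 neutrophils with 5 or more C1q UMIs, Ifi203 was at 2.33, Ifi207 at 1.73 and Aim2 at 1.21. Their part in the neutrophil level was not tested beyond this split.

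Epithelial cells and fibroblasts, which the CD45 sort should have reduced, kept part of the family. Epithelial cells had Ifi203 at 6.61 per 10000 and 7.14, Mndal at 5.23 and 4.95, Ifi204 at 3.11 and 2.88, and Ifi202b at 5.64. Ifi203 was above 2-fold, where 16.9% of all genes were, and Ifi207, Ifi209 and Aim2 were below, where 12.1% were. The ratio of Ifi203 to Ifi207 UMIs was 20.1 in epithelial cells, 20.5 in B cells and 0.661 in Macro_Maf. In the 225 epithelial cells without a C1q UMI, Ifi203 was at 5.85, Ifi204 at 2.49 and Ifi207 at 0.0277. Fibroblasts had Ifi205 at 1.38 and Ifi211 at 2.01 in suffix 1, both above, where 16.7% of all genes were, and Ifi209 at 0.162. In suffix 2 Ifi205 was at 0.538 (10 UMIs) and Ifi211 at 1.18 (22 UMIs), and neither was called. Epithelial cells had less Ifi205 than fibroblasts by 4.39 on the log2 scale (a log2 ratio of −4.39, −5.66 to −3.33).

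Single cells within a name were then split by their UMIs of Isg15, an interferon-stimulated gene outside the family. The split uses measured counts, so it is a description of how the transcripts occur together. In Mono_Ly6c2, Ifi204 was at 4.84 per 10000 in 233 cells with no Isg15 UMI, at 7.17 in 104 cells with 1 to 4, and at 17.1 (14.7 to 19.8) in 31 cells with 5 or more. In suffix 2 the values were 5.01, 6.70 and 27.8 (20.8 to 36.3). Aim2 in the same cells was at 1.01, 1.02 and 0.868, and its intervals overlapped. Ifi207 was at 8.19, 10.5 and 12.3.

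In Macro_Ccl12, 85 of 131 cells held no Isg15 UMI, and in them Ifi204 was at 1.70 per 10000 (0.625 to 3.71), an interval that includes the 3.45 of Macro_Maf as a whole. In the 31 cells with 5 or more Isg15 UMIs it was at 23.3, and Aim2 was at 2.08 against 1.14. Depth moved with this split: the median was 298 counted UMIs in the cells without Isg15 and 3183 in those with 5 or more, and its part in the result was not tested. In Mono_Ly6c2 the medians were nearer, at 1618 and 2355, and in suffix 2 at 1512 and 1701. In Macro_Maf, Ifi204 was at 2.71 and 5.92 at the ends of the split, and in Macro_Vegfa at 1.79 and 5.67. Suffix 2 gave 2.56 and 7.30, and 2.03 and 4.72. Macro_Mgl2 went from 1.38 to 4.48 in suffix 1 but from 2.92 to 3.09 in suffix 2, where the intervals overlapped. cDC2_Cd209a showed little of this for Mndal, at 12.7 and 13.6.

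**Figure D4:**
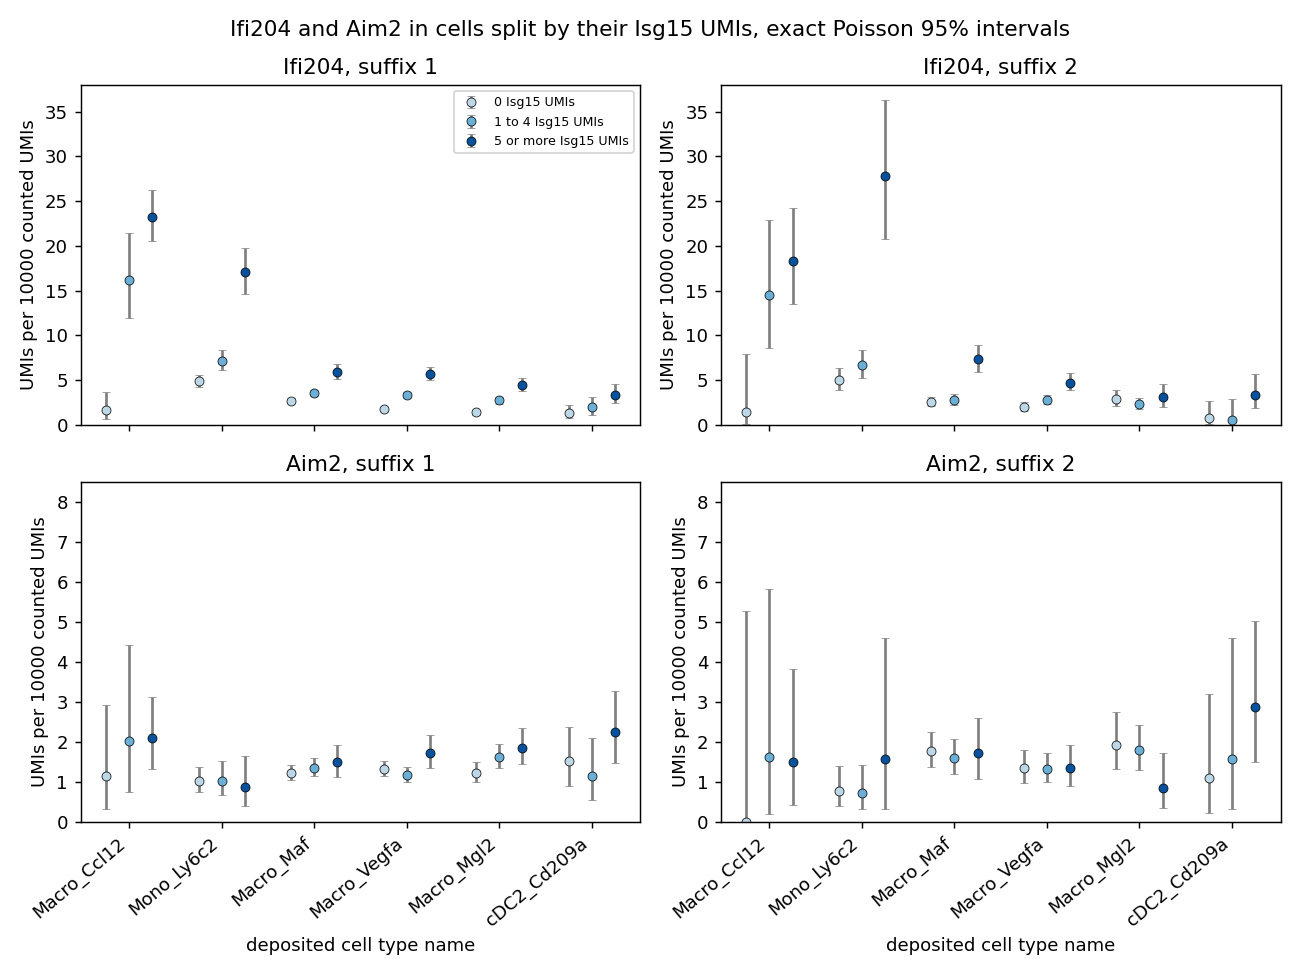
Level of Ifi204 (top) and Aim2 (bottom) in 6 myeloid names, with cells split into those with 0, 1 to 4 and 5 or more Isg15 UMIs, for suffix 1 (left) and suffix 2 (right). Points are UMIs per 10000 counted UMIs with exact Poisson 95% intervals. Ifi204 goes from 4.84 to 17.1 in Mono_Ly6c2 of suffix 1, while Aim2 goes from 1.01 to 0.868.

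Cells named CD8_Tex held C1q transcripts of macrophages in part, and the members followed that split. In suffix 1, 106 cells had no C1q UMI and 253 had 5 or more. Ifi207 was at 0.159 per 10000 (0.0327 to 0.464) in the former and at 4.06 (3.75 to 4.38) in the latter, and Ifi204 at 0.476 and 2.84. Ifi203 went the other way, from 6.66 (5.55 to 7.94) to 4.47 (4.15 to 4.81), and so did Aim2, from 3.28 (2.51 to 4.20) to 1.60 (1.41 to 1.81). The summed level hid this, at 18.8 and 20.4. In suffix 2, Ifi207 was at 0.115 and 2.85, Ifi204 at 0.805 and 2.37, and Aim2 at 2.18 and 1.58 with overlapping intervals. The CD8_Tex cells without C1q thus had an Ifi207 level within the 0 to 0.575 of the other 7 lymphoid names. B cells of suffix 2 showed the same, with Ifi207 at 0.181 in 160 cells without C1q and at 3.15 in 59 cells with 5 or more.

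**Figure D5:**
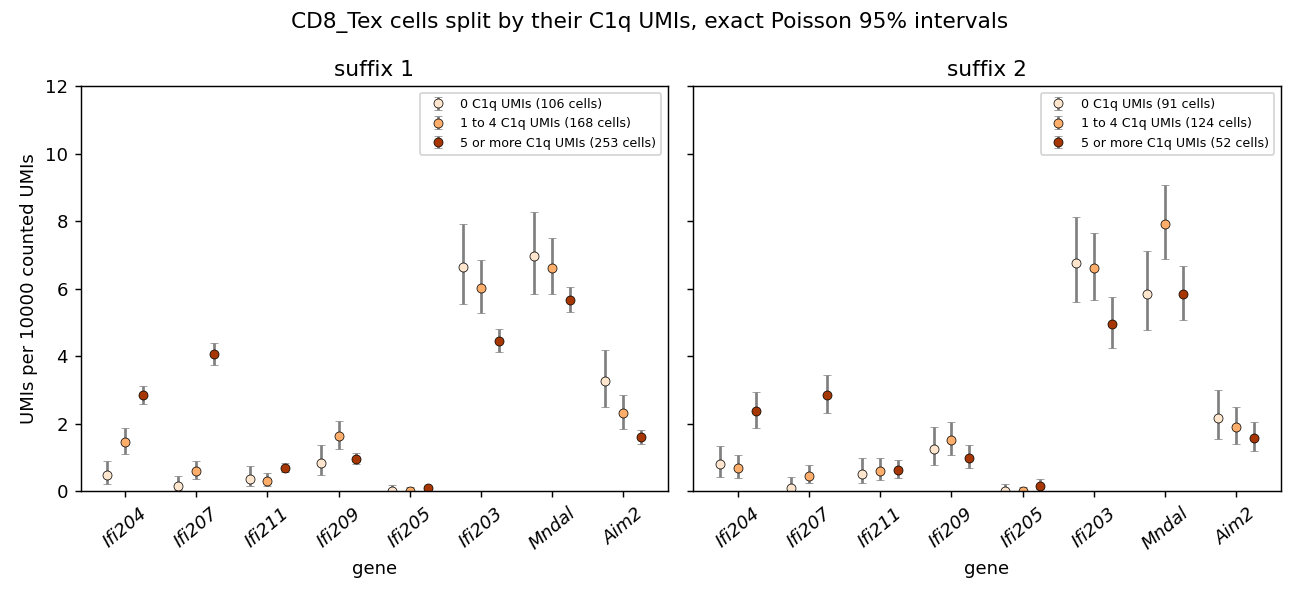
Level of 8 genes in CD8_Tex cells split by their C1q UMIs (C1qa, C1qb and C1qc summed), for suffix 1 (left) and suffix 2 (right). Points are UMIs per 10000 counted UMIs with exact Poisson 95% intervals. Ifi207 goes from 0.159 to 4.06 in suffix 1 and Aim2 from 3.28 to 1.60.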

How the data were processed

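Single-cell RNA libraries of sorted CD45-positive cells were made from 4 samples, 2 wild-type and 2 Mif-depleted. The authors deposited one table of UMI counts, not normalized, and a list of cell type names by barcode. The submitters' processing notes list Cell Ranger, Seurat, GRCm38 and mm10 and give no role for any of them. The table held 4099 complete gene rows, and 1 incomplete row with 14021 values was left out. Of 23 deposited names, 22 are described, and results of 1 cell type name are not reported here.

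Counts were summed per name and barcode suffix and divided by the counted UMIs. Intervals are 95%, exact Poisson for levels, exact conditional binomial for ratios and Clopper-Pearson for shares, and cover counting error only. Median depth was 1225 counted UMIs per cell in suffix 1 and 1712 in suffix 2. Shares of cells used cells thinned to 500 UMIs at random, leaving out shallower cells. Likeness used a pseudocount of 0.1. No doublet caller was run. Members, gene lists and splits were chosen with earlier results of these data known. The named genes were the 9 members, the fixed lists and the 3 genes most like each member, of which 1 is not reported here. On simulated Poisson counts for Macro_Ccl12, 84.0% of genes raised 6-fold and 40.0% of genes raised 3-fold were called above 2-fold. None of 3320 unchanged genes was called. These were drawn at equal levels with no spread between cells, so that count gives no rate of wrong calls for the real data. Python 3.11.15 was used with numpy 2.4.6, scipy 1.17.1, pandas 2.3.3, Biopython 1.88 and matplotlib 3.10.9.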

Additional observations from a re-analysis of the deposited data

How the results depend on the processing

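No paired analysis was possible because no name ties a barcode suffix to a sample. The test of Mif-depleted against wild-type tumours, with its block and its other normalization, was not run for the same reason. Of 79 recomputed values that answer a comparison, 55 kept their side of the threshold or moved within their interval. So did 26 of 26 values of single genes in single names. Among these 26, direction was not always kept. The log2 ratio of Aim2 in CD4_Treg went from 1.24 (0.79 to 1.65) to −0.06 (−0.51 to 0.35) as UMIs per cell. No cause was tested for any value that moved. Without S100a8 and S100a9 in the denominator, the log2 ratio of the summed level fell from 1.36 to 0.97 in CD4_Tcm and from 1.33 to 0.94 in cDC2_Cd209a, whose intervals then reached under 1, and suffix 2 gave 1.13 for cDC2_Cd209a. As UMIs per cell the ratio of CD4_Tcm reversed to −0.52, with 0 members above 2-fold and 4 below. In suffix 2 the shares of the UMIs of the 9 genes were 4.51% for Ifi207, 5.66% for Ifi204 and 11.7% for Aim2 in lymphoid names, and 20.5% for Ifi207 and 6.53% for Aim2 in myeloid names. The share of cells with a UMI of any of the 9 genes, after thinning to 500 UMIs, was 79.7% in Macro_Ccl12, 76.9% in CD4_Tcm and 6.32% in neutrophils. It was 64.4%, 59.1% and 4.70% after thinning to 300 UMIs. It was 64.9% in Macro_Ccl12 and 14.0% in neutrophils without thinning. In neutrophils of suffix 2 it was 10.1% after thinning to 500 UMIs and 18.8% without thinning. CD8_Tex cells without a C1q UMI gave 0.476 for Ifi204, 0.159 for Ifi207 and 18.8 for the sum per 10000. Chosen after the data were seen, CD8_Tex among the lymphoid names gave 8.19% for Ifi207 and 8.02% for Ifi204, against 1.23% and 4.29% without it, neutrophils without a C1q UMI gave a summed 0.950 per 10000, and Macro_Ccl12 cells with 500 or more UMIs gave 84.6. Depth limits Ifi213 most, with 22 UMIs in suffix 1.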
